A study of Mus musculus with 12 samples.

Results

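Primary cardiac fibroblasts of wild-type mice aged 18 months were compared with those of mice aged 3 months, both under MGT, across all genes of the deposited count table. MGT is the cocktail of the cardiac transcription factors Mef2c, Gata4 and Tbx5, and the cells were collected on day 3. The comparison used 4 of the 12 RNA-seq libraries of the series, 2 from 18-month cells (aged, MGT) and 2 from 3-month cells (adult, MGT). The other 8 libraries were the MGT and LacZ libraries of neonatal cells and the LacZ libraries of aged and adult cells. The neonatal cells came from mice of postnatal days 1 to 3. LacZ was the control vector without the cardiac factors. All groups shared the wild-type genotype, the heart as source and the day of collection. No label tells separate animals from repeat cultures for the 2 libraries of a group, or how many hearts were pooled, so the p-values below measure the spread between these libraries, which may be technical. Age and cell preparation cannot be told apart, since each age has its own preparations.

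Direct cardiac reprogramming turns fibroblasts into cells with features of cardiomyocytes without a stem cell stage. Mef2c, Gata4 and Tbx5 bind enhancers of cardiac genes and switch on sarcomere and ion channel genes, while the fibroblast and inflammatory programmes of the starting cell are known barriers. The series is concerned with the nuclear receptor Nr4a3 and senescence as such a barrier, and the comparison described here asks how the cells of old mice differed from those of young adults once they carried the factors.

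The 4 libraries held between 12553883 and 14056483 counts on the genes of the table, and the 12 libraries between 12553883 and 16339091. The table lists 16383 genes and stops at the identifier ENSMUSG00000057457, so that genes with later identifiers were not analysed here. Levels are given as CPM, the count scaled to the library total, replicate 1 before replicate 2, and changes as log2 of aged over adult with the standard error of the fit, with 2 libraries in each group. The delivered factors were checked first. Mef2c had 151 and 181 CPM in aged MGT libraries and 214 and 201 CPM in adult MGT libraries, against 8.04 and 10.3 CPM in aged LacZ libraries and 10.1 and 8.9 CPM in adult LacZ libraries. Tbx5 had 244 and 299 CPM in aged MGT libraries and 289 and 279 CPM in adult MGT libraries, while every LacZ library of these ages was between 0.463 and 1.21 CPM. Gata4 had 217 and 251 CPM in aged MGT libraries and 239 and 236 CPM in adult MGT libraries, against 111 to 123 CPM in the LacZ libraries of both ages. All 3 factors were thus higher in each MGT library than in each LacZ library of these ages, as the labels say. Counts do not separate the delivered transcript from the gene of the cell. The fibroblast collagen Col1a1 had 619.6 and 788 FPKM in aged cells and 723 and 751 FPKM in adult cells and the surface marker Thy1 had 166 and 181 FPKM in aged cells and 172 and 197 FPKM in adult cells. Both are markers of the labelled cell type. Of the defining markers of other cell types, Myh7 of cardiomyocytes, Sox10 of Schwann cells and Cd3e of T cells were at or near 0 in all 4 libraries. Others were detected in all 4, among them the cardiomyocyte genes Tnnt2 (249 to 315 CPM) and Myl7 (13.7 to 18.5 CPM) and the macrophage genes Adgre1 (29.4 to 36.3 CPM), Csf1r (43.3 to 54.4 CPM) and Cd68 (29.5 to 35.4 CPM).

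Of 11940 genes tested, 2369 differed between aged and adult MGT cells at an adjusted p below 0.05, which is 19.8% of them. Of these, 1170 were higher in aged cells (9.80% of tested genes) and 1199 were lower (10.0%), while the median change of all tested genes was -0.0026 on the log2 scale. The shares of list members given below are to be read beside these 9.80% and 10.0%. The larger changes leaned downward: of the 467 calls of at least 2-fold (3.91% of tested genes), 146 were higher (1.22%) and 321 lower (2.69%) in aged cells. The aged and adult libraries did not overlap for 7215 of the tested genes, or 60.4%, so a gene without overlap is not in itself uncommon here. The number of calls moved by over 1.5 times when aged replicate 2 or either adult replicate was left out. Without aged replicate 1 it was 1029 higher and 909 lower, without aged replicate 2 it was 602 higher and 712 lower, without adult replicate 1 it was 641 higher and 794 lower, and without adult replicate 2 it was 510 higher and 566 lower. Of the full set, 395 higher and 469 lower genes were called whichever of the 4 libraries was left out.

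**Figure D1:**
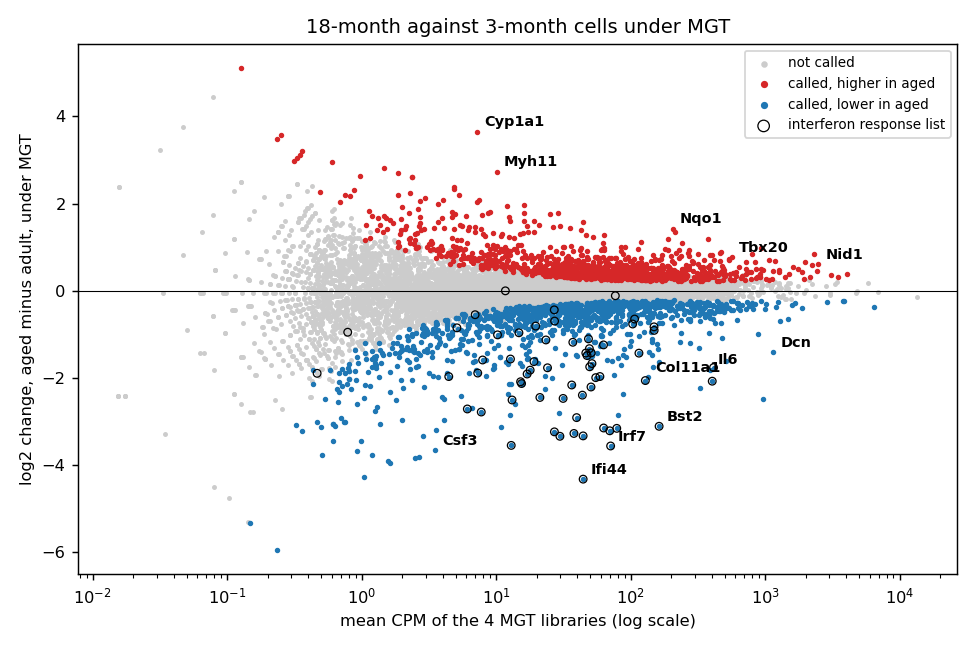
Each point is one of 11940 tested genes, with its mean CPM over the 4 MGT libraries on a log axis and its log2 change of aged minus adult on the vertical axis. Red genes were called higher and blue genes lower in aged cells, and open circles mark the interferon response list, whose called members all lie below 0 and reach -4.33 for Ifi44.

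The most uniform difference was in the interferon response. Type I interferon acts through the receptor chains Ifnar1 and Ifnar2 and the transcription factors Stat2 and Irf9, which bind a promoter element and switch on genes that sense, trap or degrade viral RNA. Of 61 tested genes of that list, 56 were lower in aged cells, 0 were higher, and the median change was -1.83, beside 10.0% of all tested genes called lower. Summed over the list, the level was 1508 and 1604 CPM in aged MGT libraries and 5247 and 5182 CPM in adult MGT libraries. Neonatal MGT libraries, at 6945 and 5879 CPM, were also above the aged ones. The list held 85 genes, of which 63 were in the table, and the 5 tested members without a call were Ifit2, Mx1, Ifitm1, Cxcl10 and Cgas, with adjusted p-values between 0.064 and 0.98. Leaving out any of the 4 libraries left 55 or 56 members called lower.

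Ifi44, an interferon-induced cytoplasmic protein encoded at chr3:151730922-151749960 (mm10, ENSMUSG00000028037), was the leading fall among genes with at least 5 CPM in the higher group. It had 3.59 and 4.78 CPM in aged cells against 86.6 and 82.3 CPM in adult cells, a 20.2-fold lower level (log2 -4.33 ± 0.18, adjusted p = 1.2e-11). Both aged libraries were far below both adult libraries. The master regulator Irf7 (chr7:141262706-141266481) had 9.07 and 12.9 CPM in aged cells and 143 and 119 CPM in adult cells (log2 -3.57 ± 0.19, adjusted p = 2.3e-10), again without overlap. Among the RNA sensors and effectors, Oas2, which makes the activator of RNase L, had 2.21 and 1.82 CPM in aged cells and 20.2 and 27.6 CPM in adult cells, and Zbp1, a sensor of Z-form nucleic acid that can start cell death, had 5.8 and 10.1 CPM in aged cells and 76.4 and 84.9 CPM in adult cells. Rtp4 (log2 -3.35 ± 0.19), the guanylate-binding protein gene Gbp3 (-3.28 ± 0.18), the GTPase gene Iigp1 (-3.25 ± 0.26) and Oasl2 (-3.22 ± 0.18) fell by similar amounts, with adjusted p-values between 2.8e-10 and 4.5e-08. All of these calls held without any 1 of the 4 libraries.

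3 further members were looked up after their values were seen, as examples with an element in the promoter. The ubiquitin-like modifier Isg15 had 13.2 and 18.4 CPM in aged cells and 142 and 142 CPM in adult cells (log2 -3.17 ± 0.16, adjusted p = 1.4e-10). Bst2, which tethers budding virus to the membrane, had 32.1 and 35.1 CPM in aged cells and 311 and 272 CPM in adult cells (log2 -3.12 ± 0.12). Ifit1, which binds foreign RNA caps, had 12.7 and 12.6 CPM in aged cells and 112 and 114 CPM in adult cells (log2 -3.16 ± 0.23). Upstream of them the pattern was less uniform. The interferon gene Ifnb1 had 0 counts in all 4 libraries, and Ifnar2 was lower in aged cells (-0.62 ± 0.08, adjusted p = 2.7e-05). Of the sensing genes, Ddx58 (-1.44 ± 0.10, adjusted p = 1.5e-08), Tlr3 (-0.79 ± 0.12, adjusted p = 8.7e-05) and Sting1 (-0.51 ± 0.10, adjusted p = 0.0012) were also lower. Ifnar1 (-0.15 ± 0.09, adjusted p = 0.25), Irf3 (0.04 ± 0.10, adjusted p = 0.82) and the DNA sensor Cgas (-0.01 ± 0.14, adjusted p = 0.98) were not called. Members of the Oas, Gbp, Ifit, Mx and Slfn families have close copies that can share reads, so how a fall divides among copies is uncertain.

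The interferon-stimulated response element is the sequence that Irf9 and other interferon regulatory factors bind. It was searched as GAAA, any 2 bases and GAAA, on both strands, in the 250 bases before the RefSeq start of each gene (GRCm38.p6). Of the 43 called interferon genes with a sequence, 16 held it (37.2%), against 282 of 9427 tested genes with a sequence (2.99%). The windows of 4 of the called genes are shown 5′ to 3′ on the strand of the gene, as examples with at least 2 matches that were chosen after their values were seen; capitals mark every match, overlapping matches merged, and a match on the other strand reads TTTC, any 2 bases and TTTC. The windows are chr4:156200819-156201068 (minus strand) for Isg15, chr19:34640639-34640888 (plus strand) for Ifit1, chr8:71537473-71537722 (minus strand) for Bst2 and chr3:142559794-142560043 (plus strand) for Gbp3.
Isg15: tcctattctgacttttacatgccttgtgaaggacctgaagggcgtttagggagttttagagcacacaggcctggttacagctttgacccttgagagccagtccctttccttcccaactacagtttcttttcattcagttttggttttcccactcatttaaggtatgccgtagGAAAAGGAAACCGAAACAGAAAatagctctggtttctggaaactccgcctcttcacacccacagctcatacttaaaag
Ifit1: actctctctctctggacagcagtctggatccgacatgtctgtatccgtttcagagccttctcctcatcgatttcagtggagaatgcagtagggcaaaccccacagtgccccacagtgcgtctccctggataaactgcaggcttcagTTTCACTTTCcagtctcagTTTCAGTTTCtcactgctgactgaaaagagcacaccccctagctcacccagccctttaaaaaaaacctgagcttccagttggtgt
Bst2: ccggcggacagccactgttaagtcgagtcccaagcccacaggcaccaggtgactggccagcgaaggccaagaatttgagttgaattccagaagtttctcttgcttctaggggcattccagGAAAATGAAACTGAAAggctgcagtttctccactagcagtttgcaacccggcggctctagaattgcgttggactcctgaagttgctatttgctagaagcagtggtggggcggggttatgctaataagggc
Gbp3: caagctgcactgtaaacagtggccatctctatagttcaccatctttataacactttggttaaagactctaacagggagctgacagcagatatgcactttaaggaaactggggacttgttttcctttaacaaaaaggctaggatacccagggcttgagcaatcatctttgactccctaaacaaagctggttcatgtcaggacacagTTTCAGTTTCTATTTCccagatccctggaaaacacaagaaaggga
A match is a description of the sequence and not a measured binding site.

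Genes of complement and antigen presentation, which flag infected cells and display peptides, followed in the same direction. Of 18 tested, 11 were lower in aged cells (61.1%) and 0 higher, with a median of -0.57. The class I gene H2-Q4 had 20.5 and 21.1 CPM in aged cells and 63.1 and 52.3 CPM in adult cells (log2 -1.47 ± 0.12), and Serping1, the C1 inhibitor, had 172 and 195 CPM in aged cells and 439.9 and 476 CPM in adult cells (log2 -1.32 ± 0.10, adjusted p = 1.9e-08). Class I genes are near copies of each other, so the H2-Q4 value is uncertain. The count of lower members was 7 without aged replicate 1, 7 without aged replicate 2, 7 without adult replicate 1 and 6 without adult replicate 2. Tap1 and Tapbp, which load class I peptides, stand in both this list and the interferon list.

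Inflammatory secreted factors were also mostly lower in aged cells. Of 41 tested chemokine and cytokine genes, 24 were lower (58.5%) and 4 higher (9.76%), with a median of -0.67. The count of lower members was 15 without aged replicate 2 and 16 without aged replicate 1, and also 16 without adult replicate 2. Il6, a cytokine made by activated fibroblasts, had 181 and 161 CPM in aged cells against 578 and 632 CPM in adult cells (3.54-fold lower, log2 -1.82 ± 0.13, adjusted p = 1.1e-08). The granulocyte growth factor Csf3 had 0.756 and 0.251 CPM in aged cells and 6.01 and 7.0 CPM in adult cells (log2 -3.67 ± 0.38). Both genes showed aged libraries far below the adult ones. Tnfsf11, the osteoclast factor RANKL, had 1.07 and 1.01 CPM in aged cells and 5.95 and 3.67 CPM in adult cells (log2 -2.21 ± 0.33). The exception among the leading members was Il34, a ligand of the macrophage receptor Csf1r, with 13 and 14.8 CPM in aged cells and 4.4 and 3.53 CPM in adult cells (log2 1.80 ± 0.18, adjusted p = 7.1e-07).

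Targets of the transcription factor NF-kB showed the same lean, with a median of -0.34. Of 34 tested members, 16 were lower (47.1%) and 2, Icam1 and Csf1, were higher (5.88%). Neither Icam1 nor Csf1 was called without aged replicate 2 or without adult replicate 2, and 1 of them was called without adult replicate 1. Lcn2, a siderophore-binding acute phase protein, had 28.8 and 28.6 CPM in aged cells and 144 and 152 CPM in adult cells (log2 -2.37 ± 0.09, adjusted p = 5.1e-12). Saa3, a serum amyloid, had 107 and 121 CPM in aged cells and 437 and 640.2 CPM in adult cells (log2 -2.24 ± 0.15). The aged libraries lay below the adult libraries in both. A short NF-kB motif, searched as GGGA, any 4 bases and CC on either strand, was found in the 250-base window of 6 of the 10 called lower members with a sequence (60.0%), against 26.6% of all tested genes with a sequence. Other lists had similar shares, such as 3 of 5 called higher Wnt genes (60.0%) and 5 of 9 called lower genes of complement and antigen presentation (55.6%). 2 enzymes of arginine use outside this list were among the leading falls, with Nos2, the inducible nitric oxide synthase, at 0.378 and 0.629 CPM in aged cells and 4.59 and 5.75 CPM in adult cells, and Arg1, arginase, at 0.504 and 0.189 CPM in aged cells and 4.96 and 5.06 CPM in adult cells. Both were low throughout, with aged values near the floor of 3 counts (0.188 and 0.186 CPM in the aged libraries).

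Senescent cells are known to arrest with the inhibitors p16 and p21 and to secrete inflammatory factors, proteases and growth factor binding proteins. Of 49 tested genes of that secretory list, 29 were lower (59.2%) and 8 higher (16.3%) in aged cells, with a median of -0.60. The counts were 17 lower and 5 higher without aged replicate 2, 18 lower and 5 higher without adult replicate 2, and 22 lower and 5 higher without adult replicate 1. The members that fell included Il6 and Csf3, given above, and the gelatinase Mmp9 at 5.48 and 3.71 CPM in aged cells and 19.5 and 21.5 CPM in adult cells (log2 -2.16 ± 0.24). Among the members that rose were 2 binding proteins of insulin-like growth factor. Igfbp2 had 34.7 and 43.1 CPM in aged cells and 10.9 and 12 CPM in adult cells (log2 1.77 ± 0.14, adjusted p = 3.6e-08), and Igfbp6 had 26.6 and 28.7 CPM in aged cells and 10.5 and 11.3 CPM in adult cells (log2 1.35 ± 0.13).

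The arrest genes did not share a direction. Cdkn1a, which encodes p21, had 665 and 696 CPM in aged cells and 546 and 529 CPM in adult cells, a rise of 0.34 ± 0.07 on the log2 scale (adjusted p = 0.0025) whose call was lost without adult replicate 2 (log2 0.32). Cdkn2a, which encodes p16, had 14.9 and 15.9 CPM in aged cells and 11.5 and 13.2 CPM in adult cells and was not called (log2 0.32 ± 0.17, adjusted p = 0.21). Cdkn1b, which encodes the related inhibitor p27, was lower, with 27.8 and 23.3 CPM in aged cells and 54.4 and 58.9 CPM in adult cells (log2 -1.15 ± 0.10, adjusted p = 2.3e-07). Over 19 tested genes of the list, 4 were higher (21.1%) and 2 lower (10.5%), with a median of 0.03. The counts of higher and of lower were 2 and 1 without aged replicate 1, and 2 and 2 without aged replicate 2. They were 2 and 1 without adult replicate 1, and 0 and 1 without adult replicate 2.

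Targets of p53, the damage-activated transcription factor that drives Cdkn1a, were more often higher: 13 of 31 tested rose and 2 fell, with a median of 0.23, beside the 9.80% of tested genes called higher. Without adult replicate 2 the count of higher members was 7. Perp, a membrane protein of cell death and adhesion, had 14.4 and 16.1 CPM in aged cells and 5.89 and 6.86 CPM in adult cells (log2 1.26 ± 0.15), and the stress cytokine Gdf15 had 38.4 and 45.5 CPM in aged cells and 22 and 19.7 CPM in adult cells (log2 1.01 ± 0.14, adjusted p = 5.5e-05). Pmaip1, the death factor Noxa, also rose (log2 0.64 ± 0.12). Ddb2, which recognises DNA lesions, was among those that fell, with 2.08 and 2.14 CPM in aged cells and 5.02 and 5.4 CPM in adult cells (log2 -1.30 ± 0.23). Cell cycle genes showed 10 higher and 4 lower of 79, or 12.7% and 5.06% of them, and a median of -0.01. The counts of higher and of lower were 7 and 6 without aged replicate 1, 6 and 1 without aged replicate 2, 5 and 1 without adult replicate 1, and 4 and 1 without adult replicate 2. Ccnd2, a D-type cyclin of early cycle entry, had 635 and 583 CPM in aged cells and 344 and 316 CPM in adult cells (log2 0.88 ± 0.10), while the proliferation marker Mki67, at 214 and 218 CPM in aged cells and 190.3 and 175 CPM in adult cells, was not called (adjusted p = 0.54), except in a fit of the 4 MGT libraries alone.

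The NR4A genes encode orphan nuclear receptors that are induced within an early response to stimuli. Nr4a3 had 22.7 and 32.2 CPM in aged MGT cells and 37.6 and 44.8 CPM in adult MGT cells, without overlap (log2 -0.58 ± 0.16, adjusted p = 0.016). Nr4a1 had 163 and 195 CPM in aged cells and 244 and 286 CPM in adult cells (log2 -0.57 ± 0.13, adjusted p = 0.0054), and Nr4a2 had 12.2 and 15.9 CPM in aged cells and 22 and 28.9 CPM in adult cells (log2 -0.85 ± 0.23, adjusted p = 0.012, and not called by DESeq2). All 3 receptors were lower in aged MGT cells, yet none of the 3 calls held without aged replicate 1 (log2 -0.35, -0.44 and -0.67 for Nr4a3, Nr4a1 and Nr4a2) or without adult replicate 2 (log2 -0.45, -0.45 and -0.64). Under LacZ, Nr4a3 had 8.44 and 11.8 CPM in aged cells and 11.2 and 13.4 CPM in adult cells and its change was not called (adjusted p = 0.28). The test of the difference between the vectors called 0 genes of the NR4A and immediate early list in either direction. That does not show that the vectors were alike. Of the 35 tested receptors and immediate early genes, 12 were lower (34.3%) and 10 higher (28.6%). The lower ones numbered 5 without aged replicate 1 and 6 without adult replicate 2. The ERK phosphatase gene Dusp4 was the leading rise, with 121 and 123 CPM in aged cells and 63.9 and 56.9 CPM in adult cells (log2 1.01 ± 0.09), and the AP-1 subunit Fos had 36.3 and 37.3 CPM in aged cells and 54.4 and 60.9 CPM in adult cells. The Fos call was lost without aged replicate 1 (log2 -0.63), aged replicate 2 (-0.67) or adult replicate 2 (-0.56).

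Cardiac genes are the intended outcome of MGT. Of the factors, Mef2c was the only one called, and only just (log2 -0.32 ± 0.11, adjusted p = 0.046); the call was lost without aged replicate 1 (log2 -0.20), adult replicate 1 (-0.28) or adult replicate 2 (-0.37). Gata4 and Tbx5 overlapped between the ages (adjusted p = 0.91 and 0.73). Of 33 tested sarcomere genes, 6 were higher and 1 lower in aged cells with a median of 0.05, which is 18.2% and 3.03% of them beside 9.80% and 10.0% of all tested genes. Without aged replicate 2, adult replicate 1 or adult replicate 2 the higher members were 4. Cardiac troponin T, Tnnt2, had 249 and 256 CPM in aged cells and 277 and 315 CPM in adult cells and was not called (log2 -0.23 ± 0.14, adjusted p = 0.27), except in a fit of the 4 MGT libraries alone. Acta1, skeletal alpha-actin, had 5.99 and 6.98 CPM in aged cells and 1.61 and 1.45 CPM in adult cells (log2 2.07 ± 0.31, adjusted p = 8.4e-05), and Myom1, which ties thick filaments at the M-band, had 25.6 and 24 CPM in aged cells and 9.12 and 8.52 CPM in adult cells (log2 1.49 ± 0.18). Both genes were also higher in aged cells under LacZ (log2 1.78 ± 0.43 for Acta1 and 0.88 ± 0.32 for Myom1). Under LacZ 5 sarcomere genes were higher and 1 lower, with a median of 0.17. The test of the difference between the vectors called 0 sarcomere genes with a higher age change under MGT and 1 with a lower one. Under MGT the muscle LIM protein gene Csrp3 was the 1 lower member, with 7.81 and 7.23 CPM in aged cells and 13 and 15.9 CPM in adult cells (log2 -0.94 ± 0.19). Of the 7 tested markers of the mature cardiomyocyte, Fabp3 was lower (log2 -0.86 ± 0.18) and Ttn higher (log2 0.59 ± 0.19); the Ttn call was lost in DESeq2 and without any 1 of the libraries, with a log2 change between 0.45 and 0.74.

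More genes of calcium handling and excitation were lower than higher. Of 29 tested, 8 were lower (27.6%) and 3 higher (10.3%), though the median was 0.10. The lower members numbered 4 without aged replicate 2, 5 without adult replicate 1 and 3 without adult replicate 2. Kcnj2, the inward rectifier that sets the resting potential, had 2.27 and 1.19 CPM in aged cells and 7.38 and 11.2 CPM in adult cells (log2 -2.42 ± 0.36, adjusted p = 8.9e-05), and the atrial potassium channel Kcna5 had 0.063 and 0.251 CPM in aged cells and 1.3 and 2.36 CPM in adult cells (log2 -3.46 ± 0.69). The aged values of Kcna5 lay near the floor of 3 counts, which limits their precision. Among 21 tested genes for cardiac transcription factors or natriuretic peptides, 4 were higher (19%) and 1 was lower (4.76%). Tbx20, a T-box factor of the heart, was the abundant one, with 758 and 664 CPM in aged cells against 407 and 432 CPM in adult cells (log2 0.76 ± 0.10, adjusted p = 3.8e-05). Tbx2, its repressor relative, had 10.0 and 13.1 CPM in aged cells and 6.2 and 6.72 CPM in adult cells (call lost without aged replicate 2, log2 0.63). The atrial peptide Nppa had 1.26 and 1.57 CPM in aged cells and 3.84 and 4.16 CPM in adult cells (call lost without aged replicate 1, log2 -1.34).

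Genes of smooth muscle and pericytes, the contractile cells of vessel walls, were mostly higher. Of 15 tested, 8 rose (53.3%) and 2 fell (13.3%) in aged cells, with a median of 0.71. Without any 1 of the libraries the higher ones numbered 7 or 8 and the lower ones 1. Myh11, smooth muscle myosin, had 19.1 and 16 CPM in aged cells and 2.98 and 2.29 CPM in adult cells (6.62-fold higher, log2 2.73 ± 0.21, adjusted p = 4.1e-08). Calponin, Cnn1, had 25.5 and 23.1 CPM in aged cells and 6.95 and 9.07 CPM in adult cells (log2 1.61 ± 0.14), and the actin-nucleating leiomodin Lmod1 had 20.1 and 17.9 CPM in aged cells and 6.14 and 3.67 CPM in adult cells (log2 1.94 ± 0.19). In each of these the aged libraries stood well above the adult ones. Smooth muscle actin, Acta2, with 3006 and 2874 CPM in aged cells and 1628 and 1676 CPM in adult cells (log2 0.83 ± 0.08), and Tagln, with 533 and 459 CPM in aged cells and 282 and 284 CPM in adult cells (log2 0.81 ± 0.09), were added after their values were seen. The 2 members that fell were Steap4, a metalloreductase gene, at 12.2 and 8.8 CPM in aged cells and 38.8 and 45.1 CPM in adult cells (log2 -2.00 ± 0.17) and the growth factor receptor gene Pdgfrb (-0.30 ± 0.10), whose call was lost without any 1 of the libraries (log2 between -0.39 and -0.23). Summed over the list, aged MGT libraries had 4248 and 4112 CPM and adult MGT libraries 2609 and 2702 CPM, and the part of smooth muscle cells in the cultures was not tested. In bulk RNA, more cells of a type and more RNA of those genes per cell cannot be told apart.

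Acta2, Tagln and Cnn1 are also markers of the myofibroblast, the contractile and matrix-making state of fibroblasts. Of 29 tested genes of that state, 10 were higher (34.5%) and 4 lower (13.8%), with a median of 0.07. The higher ones numbered 6 without adult replicate 1 and 6 without adult replicate 2, where the lower ones numbered 2. Ltbp2, which stores latent growth factor in the matrix, had 262 and 349 CPM in aged cells and 115 and 124 CPM in adult cells (log2 1.35 ± 0.12, adjusted p = 2.3e-07). Cthrc1, a collagen-triple-helix protein of activated cardiac fibroblasts, had 77.9 and 73.7 CPM in aged cells and 196 and 225 CPM in adult cells (log2 -1.47 ± 0.11, adjusted p = 2.1e-08). Postn, another activation marker, had 175 and 168 CPM in aged cells and 188 and 160.0 CPM in adult cells and overlapped between the ages.

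Fibroblast identity genes were lower more often than higher, with 13 of 34 lower (38.2%), 4 higher (11.8%) and a median of -0.25. The counts of lower and of higher were 8 and 2 without aged replicate 2, 8 and 2 without adult replicate 1, and 7 and 3 without adult replicate 2. Decorin, Dcn, a small proteoglycan that binds collagen fibrils, had 672 and 576 CPM in aged cells against 1566 and 1776 CPM in adult cells (2.68-fold lower, log2 -1.42 ± 0.10, adjusted p = 6.8e-09). Mgp, an inhibitor of calcification, had 143 and 141 CPM in aged cells and 297 and 347 CPM in adult cells (log2 -1.18 ± 0.09), and the fibril-associated collagen Col14a1 had 4.22 and 4.15 CPM in aged cells and 12.3 and 13.2 CPM in adult cells (log2 -1.60 ± 0.32). The main fibrillar collagen Col1a1 overlapped between the ages (4099.9 and 5232 CPM in aged cells and 4741 and 4945 CPM in adult cells), so the fall did not cover every fibroblast gene.

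The matrix list was mixed. Of 42 tested genes of fibrillar matrix and cross-linking, 15 were lower (35.7%) and 9 higher (21.4%), with a median of -0.06. The lower ones numbered 10 without aged replicate 1, 9 without adult replicate 1 and 6 without adult replicate 2. The higher ones numbered 6 without aged replicate 2, adult replicate 1 or adult replicate 2. Col11a1, a minor fibrillar collagen, had 50.3 and 57.7 CPM in aged cells and 211 and 219 CPM in adult cells (log2 -1.99 ± 0.10, adjusted p = 8.3e-11). In contrast Col15a1, which anchors basement membranes, had 37.1 and 41 CPM in aged cells and 14.5 and 13.9 CPM in adult cells (log2 1.46 ± 0.12), and the microfibril collagen Col6a3 had 38.2 and 49.2 CPM in aged cells and 15.1 and 16.3 CPM in adult cells (log2 1.48 ± 0.17). Basement membrane genes leaned upward, with 7 of 18 higher (38.9%), 2 lower (11.1%) and a median of 0.22. The higher ones numbered 1 without aged replicate 2, 4 without adult replicate 1 and 3 without adult replicate 2. Nidogen, Nid1, which links laminin to collagen IV, had 3005 and 2960.0 CPM in aged cells and 1985 and 1946 CPM in adult cells (log2 0.60 ± 0.09, adjusted p = 1.2e-04). The proteoglycan agrin, Agrn, had 60.3 and 65.7 CPM in aged cells and 151 and 128 CPM in adult cells (log2 -1.15 ± 0.11, adjusted p = 2.8e-07).

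Among 34 tested matrix proteases and inhibitors, 7 were higher (20.6%) and 10 lower (29.4%), the lower ones numbering 4 without aged replicate 2 and 6 without adult replicate 2. The 2 plasminogen activators moved in opposite directions. Plau, the urokinase type, had 95.4 and 84.7 CPM in aged cells and 39.4 and 35.3 CPM in adult cells (log2 1.27 ± 0.10, adjusted p = 6.0e-08), while Plat, the tissue type, had 32.9 and 31.9 CPM in aged cells and 69.5 and 77.7 CPM in adult cells (log2 -1.18 ± 0.10, adjusted p = 8.8e-08). Neither gene overlapped between the ages.

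**Figure D2:**
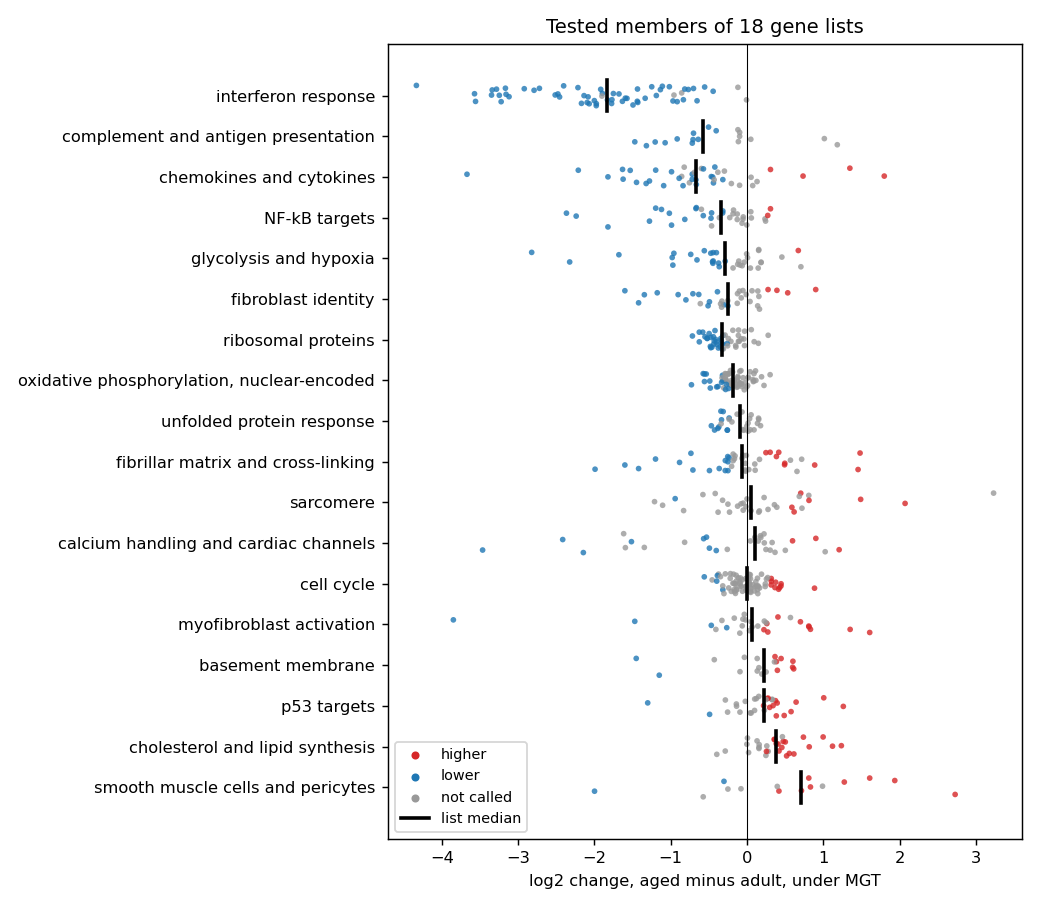
Each point is a tested gene of one of 18 lists, placed by its log2 change of aged minus adult under MGT, red where called higher, blue where called lower and grey where not called; black bars are list medians. The interferon list stands at a median of -1.83 and the smooth muscle list at 0.71, while cell cycle, sarcomere and fibrillar matrix genes straddle 0.

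Genes of cholesterol and lipid synthesis, which the factor Srebf2 switches on when sterol is low, were higher in aged cells. Of 30 tested, 17 rose (56.7%) and 0 fell, with a median of 0.37. Without aged replicate 2 the higher ones numbered 10 and without adult replicate 2 they numbered 9, again with 0 lower. The synthesis enzymes Hsd17b7 (76.2 and 71 CPM in aged cells and 32.4 and 30.1 CPM in adult cells, log2 1.24 ± 0.10) and Cyp51 (55 and 54.5 CPM in aged cells and 31.2 and 31 CPM in adult cells, log2 0.82 ± 0.11) were among those that rose. No library of one age reached the range of the other in either gene. A CCAAT box, searched as CCAAT on both strands, was in 8 of the 9 called members with a promoter sequence (88.9%), against 39.9% of all tested genes with a sequence. High shares were also found in other lists, with 5 of 6 called lower imprinted genes (83.3%) and 7 of 9 called lower genes of the unfolded protein response (77.8%).

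Glycolysis and hypoxia genes, many of them targets of the oxygen-sensitive factor Hif1a, were more often lower in aged cells. Of 35 tested, 18 fell (51.4%) and 1, Pfkfb4, rose (2.86%), with a median of -0.29. Pfkfb4 was not called without aged replicate 2 or without adult replicate 2. Slc16a3, which exports lactate, had 7.5 and 7.1 CPM in aged cells against 52.4 and 50.9 CPM in adult cells (7.07-fold lower, log2 -2.82 ± 0.13, adjusted p = 3.1e-11). Pdk1, a kinase that holds pyruvate back from mitochondria, had 5.86 and 5.72 CPM in aged cells and 19.3 and 17.8 CPM in adult cells (log2 -1.68 ± 0.19), and Hif1a itself had 268 and 245 CPM in aged cells and 494 and 519.6 CPM in adult cells (log2 -0.98 ± 0.08, adjusted p = 1.1e-07). The lower members thus included transport, enzyme and regulator genes of the pathway.

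Antioxidant and metallothionein genes, among them targets of the oxidant-responsive factor Nrf2, were split. Of 31 tested, 12 were higher (38.7%) and 8 lower (25.8%), with 5 lower without adult replicate 2. The quinone reductase Nqo1 had 283 and 316 CPM in aged cells and 110.2 and 113 CPM in adult cells (log2 1.42 ± 0.11, adjusted p = 2.3e-08), and the glutathione transferase Gsta3 had 52 and 50.8 CPM in aged cells and 18.9 and 19.3 CPM in adult cells (log2 1.43 ± 0.12). The metal-binding Mt2 had 32.5 and 38.5 CPM in aged cells and 104 and 115 CPM in adult cells (log2 -1.62 ± 0.10), and Sod2, the mitochondrial superoxide dismutase and also an NF-kB target, had 98.9 and 82.8 CPM in aged cells and 185 and 209.9 CPM in adult cells (log2 -1.12 ± 0.10). Cyp1a1, a xenobiotic-metabolising enzyme under the aryl hydrocarbon receptor (chr9:57687928-57703824, mm10), was the leading rise of all genes under the naming rule. It had 12.2 and 14.3 CPM in aged cells and 1.12 and 0.97 CPM in adult cells (12.6-fold higher, log2 3.65 ± 0.31, adjusted p = 1.1e-07). Other genes of that receptor were looked up after seeing this value: Tiparp (0.77 ± 0.10, adjusted p = 1.3e-05) and Ahrr (0.73 ± 0.17, adjusted p = 0.0054) were higher in aged cells, the Ahrr call being lost without aged replicate 2 (log2 0.49) or adult replicate 1 (0.67), and Cyp1b1 (0.28 ± 0.10, adjusted p = 0.055) and the receptor gene Ahr (-0.12 ± 0.14, adjusted p = 0.63) were not called.

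Ribosomal protein genes showed a small and broad difference, with 28 of 48 tested lower in aged cells (58.3%), 0 higher and a median of -0.33. Without adult replicate 2 the lower ones numbered 17. Rpl38 had 31.9 and 34.3 CPM in aged cells and 56.6 and 52 CPM in adult cells (log2 -0.72 ± 0.10, adjusted p = 5.7e-05), and Rps18 had 299 and 315 CPM in aged cells and 469 and 478 CPM in adult cells (log2 -0.63 ± 0.08). Nuclear-encoded genes of oxidative phosphorylation showed 15 of 66 lower (22.7%), 0 higher and a median of -0.18. The lower ones numbered 8 without aged replicate 1, aged replicate 2 or adult replicate 1, and 6 without adult replicate 2. The complex I subunit Ndufa1 had 17.7 and 20.4 CPM in aged cells and 32 and 31.2 CPM in adult cells (log2 -0.73 ± 0.12), and the complex IV subunit Cox6c had 92.6 and 86.8 CPM in aged cells and 134 and 130.2 CPM in adult cells (log2 -0.56 ± 0.10). The median exon length was 1989.5 bases for the ribosomal list and 1814.5 bases for the oxidative phosphorylation list. Exon length moved with the change over all genes. The shortest of 5 length bins, with exon lengths of 151 to 2592 bases, had a median of -0.10, with 142 genes higher and 334 lower. The longest bin, from 7811 bases up, had a median of 0.04, with 283 higher and 185 lower. Genes under 1000 bases outside the ribosomal list numbered 236, with a median of -0.232, 43 lower and 3 higher. That limit lies below the median exon length of both lists, so these genes are not matched to them in length. The part of exon length in the ribosomal and mitochondrial results was not tested. Ribosomal protein genes have many processed pseudogenes that can share reads.

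**Figure D3:**
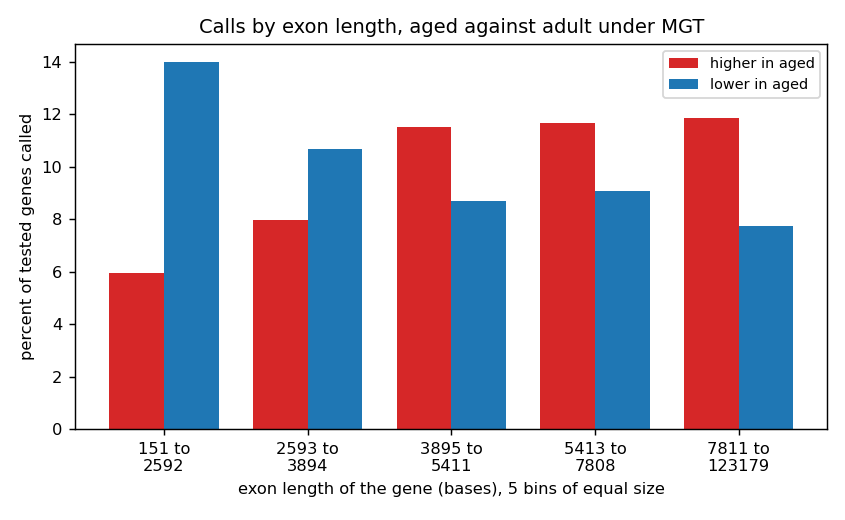
Bars give the percent of tested genes called higher (red) and lower (blue) in aged cells under MGT in 5 bins of exon length with nearly equal gene numbers. Lower calls make up 14.0% of the shortest bin and 7.75% of the longest, while higher calls make up 5.95% of the shortest and 11.9% of the longest.

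Other pathways of metabolism and protein handling had small median changes. The shares called lower were 8.33% for fatty acid oxidation, 35.7% for the unfolded protein response and 8.57% for autophagy and the lysosome. Over all tested genes the share was 10.0%. Fatty acid oxidation genes had 2 of 24 lower, Fabp3 and the transporter Slc27a1 (log2 -0.81 ± 0.14), and the rate-limiting Cpt1a was not called (158 and 167 CPM in aged cells and 149 and 145 CPM in adult cells). Of 28 genes of the unfolded protein response, 10 were lower and 0 higher with a median of -0.10, numbering 5 without aged replicate 2 and 1 without adult replicate 2. The largest of these was Selenok, at 59 and 56 CPM in aged cells and 77.7 and 81.3 CPM in adult cells (log2 -0.47 ± 0.09). Of 35 genes of autophagy and the lysosome, 2 were higher and 3 lower; the counts of higher and of lower were 4 and 3 without aged replicate 1, 0 and 0 without aged replicate 2, 1 and 1 without adult replicate 1, and 0 and 1 without adult replicate 2.

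Ligands and binding proteins of growth factor pathways differed without a common direction. The TGF-beta and BMP list had 15 of 49 higher (30.6%) and 9 lower (18.4%), a median of -0.06, and 4 lower without adult replicate 2. Bmp4, a ligand, had 23.2 and 18.2 CPM in aged cells and 9.61 and 10.3 CPM in adult cells (log2 1.06 ± 0.14, adjusted p = 1.9e-05), while Bmp3, an antagonist of other BMPs, had 7.56 and 6.73 CPM in aged cells and 24.9 and 22.9 CPM in adult cells (log2 -1.74 ± 0.23, adjusted p = 1.9e-05). The 2 genes stood on opposite sides without overlap. The IGF list had 4 of 16 higher (25%) and 6 lower (37.5%), a median of -0.29 and, without adult replicate 2, 3 lower. Without aged replicate 2 or adult replicate 1 the higher ones numbered 2, and without aged replicate 1 the lower ones numbered 4. Beside Igfbp2 and Igfbp6, Stc1, which inhibits the protease that frees IGF, had 4.1 and 5.28 CPM in aged cells and 20.4 and 21.4 CPM in adult cells (log2 -2.15 ± 0.26).

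The Wnt list had 13 of 53 lower (24.5%) and 6 higher (11.3%), with a median of -0.16. The lower ones numbered 8 without aged replicate 1 and 7 without adult replicate 2. The higher ones numbered 3 without aged replicate 1, 2 without aged replicate 2, 1 without adult replicate 1 and 2 without adult replicate 2. Sfrp1, a secreted antagonist, had 66.6 and 66.9 CPM in aged cells and 214 and 238 CPM in adult cells (log2 -1.76 ± 0.15, adjusted p = 8.8e-08), and the agonist Rspo3 had 4.35 and 3.52 CPM in aged cells and 18.4 and 22.5 CPM in adult cells (log2 -2.37 ± 0.20). An activator and an inhibitor of the pathway thus both fell. In the Notch list 3 of 18 were higher (16.7%) and 0 lower. The higher ones were Hey2, Notch1 and Jag1, of which DESeq2 did not call Notch1. No member of this list was called without adult replicate 2; there was 1 higher member without aged replicate 1, and 1 higher and 1 lower without adult replicate 1.

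Patterning, clock, imprinted and chromatin genes differed in their counts. In the homeobox list 2 of 28 were higher (7.14%) and 4 lower (14.3%). The counts of higher and of lower were 1 and 3 without aged replicate 1, and 1 and 2 without aged replicate 2 or adult replicate 2. Hoxb9 was higher, at 2.39 and 2.77 CPM in aged cells and 0.434 and 0.277 CPM in adult cells (log2 2.82 ± 0.51, adjusted p = 6.0e-04). Outside the list, Hoxc13 had 7.94 and 8.36 CPM in aged cells and 1.3 and 1.94 CPM in adult cells (log2 2.34 ± 0.31). Among imprinted and fetal growth genes 7 of 22 were lower (31.8%) and 0 higher, with a median of -0.27 and 4 lower without adult replicate 1. Peg3, a paternally expressed zinc finger gene, had 34.2 and 35.2 CPM in aged cells and 83.1 and 85.8 CPM in adult cells (log2 -1.28 ± 0.12, adjusted p = 2.9e-07). Of 18 clock genes 2 were higher (11.1%) and 4 lower (22.2%). Of 45 chromatin regulators 3 were higher (6.67%) and 2 lower (4.44%), the lower ones numbering 1 without adult replicate 1 and 0 without adult replicate 2. Lmna, the nuclear lamina gene, had 498 and 583 CPM in aged cells and 418 and 388 CPM in adult cells (log2 0.42 ± 0.08).

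**Figure D4:**
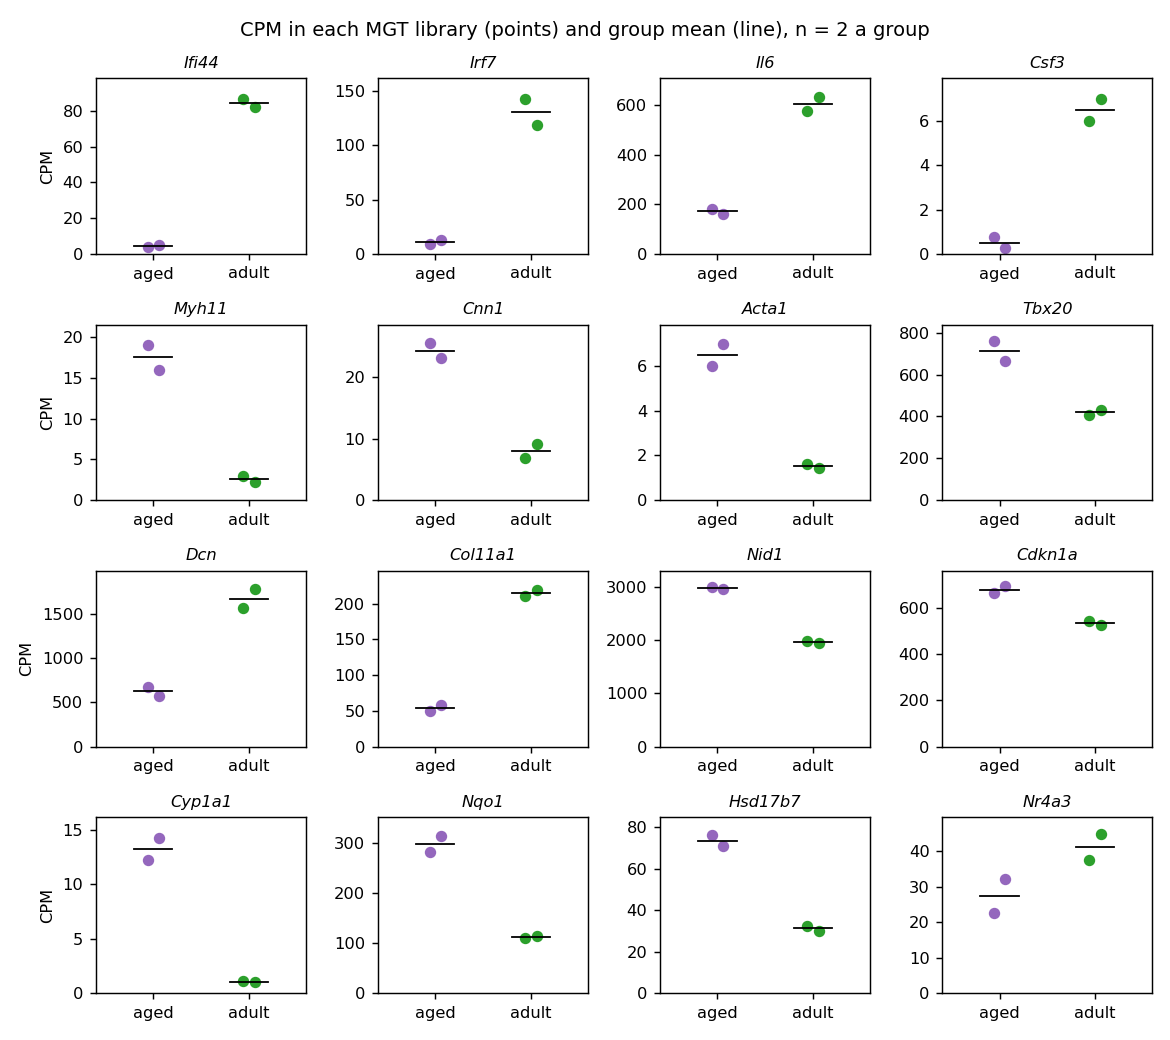
Each panel shows one gene, with the CPM of each aged MGT library (left, purple) and each adult MGT library (right, green) as points and the mean of each pair as a line; every vertical axis starts at 0. Ifi44, Irf7, Il6, Csf3, Dcn, Col11a1 and Nr4a3 were lower and the other 9 genes higher in aged cells, and the pairs do not overlap in any panel.

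The same ages were also compared under LacZ, the vector without the cardiac factors, where age and cell preparation again cannot be told apart. There, 3232 genes differed between aged and adult cells (27.1% of those tested), 1560 higher and 1672 lower; without aged LacZ replicate 1 the counts were 841 and 1033. Of the MGT calls, 1545 were also called under LacZ in the same direction, which is 65.2% of the MGT calls and 47.8% of the LacZ calls, and 14 were called in opposite directions. The 2 contrasts have no library in common. Across genes, which are not independent replicates, the 2 log2 changes had a Pearson correlation of 0.601. 810 MGT calls were not called under LacZ, but only 44 of them had an age difference that itself differed between the vectors.

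The test of the difference between the 2 age contrasts called 284 genes (2.38% of those tested). In 201 the log2 change of aged over adult was higher under MGT (1.68%), and 169 of these were lower in aged cells under LacZ. The interferon list supplied 26 of them. That list had 60 of 61 members lower in aged cells under LacZ with a median of -2.83, and its summed level was 1624 and 2009 CPM in aged LacZ libraries against 10253 and 10171 CPM in adult LacZ libraries. Adult cells under MGT, at 5247 and 5182 CPM, were between these levels, and aged cells were near the same level under both vectors. Rsad2, the antiviral enzyme viperin, and Tap1, given further below, were members named by their test. Rsad2 had 7.06 and 8.67 CPM in aged and 30.1 and 25.7 CPM in adult MGT libraries, and 4.63 and 8.61 CPM in aged and 159 and 133 CPM in adult LacZ libraries (difference of the log2 changes 2.64 ± 0.29, adjusted p = 9.4e-05).

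In 83 genes the log2 change was lower under MGT (0.695%). Ctsc, a lysosomal protease that activates serine proteases of immune cells, had 35.2 and 31.4 CPM in aged and 95 and 105 CPM in adult MGT libraries, and 17.4 and 18.3 CPM in aged and 19.7 and 22.4 CPM in adult LacZ libraries (difference -1.34 ± 0.16, adjusted p = 1.5e-04). Ptgs2, the inducible cyclooxygenase, had 1224 and 1151 CPM in aged and 1263 and 1332 CPM in adult MGT libraries, and 461 and 421 CPM in aged and 185 and 211 CPM in adult LacZ libraries (difference -1.28 ± 0.15, adjusted p = 2.1e-04). Ctsc was thus lower with age under MGT, whereas Ptgs2 was higher with age under LacZ and not called under MGT.

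Several lists read differently once the difference was tested. Of all tested genes, 1.68% had a higher and 0.695% a lower age change under MGT. For cholesterol and lipid synthesis, 14 of 30 genes had a higher age change under MGT and 0 a lower one. Under LacZ 5 were higher and 6 lower in aged cells, with a median of -0.15. For fibrillar matrix, 11 of 42 genes had a higher age change under MGT and 1 a lower one, and under LacZ 25 were lower and 5 higher in aged cells. For complement and antigen presentation the higher ones were 7 of 18, Tap1 among them, and the lower ones 0. The TGF-beta and BMP list had 7 of 49 higher and 2 lower. Glycolysis and hypoxia genes had 5 of 35 higher and 0 lower, and under LacZ 22 were lower in aged cells, with a median of -0.59. Postn differed between the vectors by 0.80 ± 0.14 (adjusted p = 0.0028), with 173 and 148 CPM in aged LacZ libraries and 305 and 263 CPM in adult LacZ libraries. Tbx20 differed by 0.77 ± 0.15 (adjusted p = 0.0066), with 549 and 671 CPM in aged LacZ libraries and 675 and 553 CPM in adult LacZ libraries, and this call was lost without adult MGT replicate 1 (0.72) or aged LacZ replicate 1 (0.63). For the smooth muscle, p53 and cell cycle lists, 0, 0 and 0 members had a higher age change under MGT, and 0, 1 and 0 had a lower one. The unadjusted differences of those lists were not read further, since a difference that is not called does not show that the vectors were alike.

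The count of differences depended on single libraries. The higher ones numbered 89 without aged MGT replicate 2, 80 without adult MGT replicate 1, 129 without adult MGT replicate 2, 79 without aged LacZ replicate 1, 351 without adult LacZ replicate 1 and 470 without adult LacZ replicate 2. The lower ones numbered 31 without aged LacZ replicate 1, 354 without adult LacZ replicate 1 and 345 without adult LacZ replicate 2, and between 34 and 55 without any 1 of the MGT libraries. The 2 adult LacZ libraries were the least alike pair, with a chi-square of 21.2 per degree of freedom between their counts, against 7.41 for the aged MGT pair, 4.11 for the aged LacZ pair and 3.03 for the adult MGT pair. The part of that spread in the LacZ contrast was not tested.

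**Figure D5:**
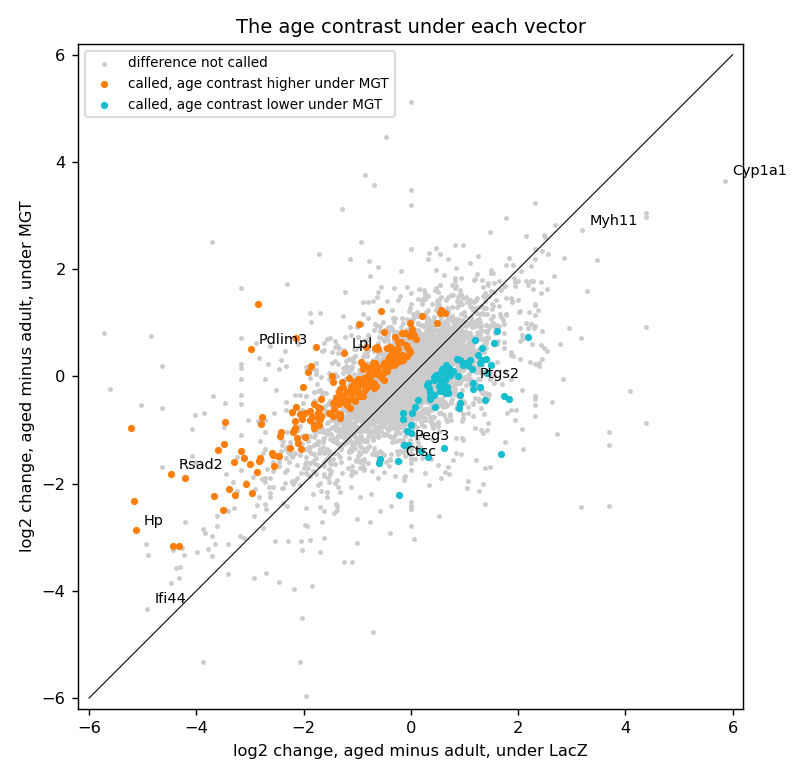
Each point is a gene, with its log2 change of aged minus adult under LacZ on the horizontal axis and under MGT on the vertical axis; the line marks equal changes and 1 gene lies outside the axes. Orange genes (201) had a higher age change under MGT and turquoise genes (83) a lower one by the test of the difference, and most orange genes lie left of 0.

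Markers of other cell types were read for each list as a whole. Of 20 tested macrophage genes 4 were higher (20%) and 3 lower (15%) in aged cells. The summed level of the list was 436 and 413 CPM in aged MGT libraries against 362 and 343 CPM in adult MGT libraries. The defining macrophage genes Adgre1, Csf1r, Ptprc and Cd68 were detected in all 4 libraries and not called, with Adgre1 at 36.3 and 29.4 CPM in aged cells and 30.0 and 29.4 CPM in adult cells. Mertk, an engulfment receptor, had 84.7 and 85.7 CPM in aged cells and 40.8 and 39.1 CPM in adult cells (log2 1.09 ± 0.13), and Cd14, a co-receptor for bacterial lipopolysaccharide, had 6.11 and 8.23 CPM in aged cells and 13 and 16.1 CPM in adult cells (log2 -1.01 ± 0.19). The counts of higher and of lower were 1 and 2 without aged replicate 1, 1 and 1 without aged replicate 2, 2 and 2 without adult replicate 1, and 1 and 2 without adult replicate 2. The part of macrophages in the lower interferon and cytokine levels was not tested.

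Of 20 tested endothelial genes 6 were lower (30%) and 1 higher (5%), with 2 lower without aged replicate 2 and 4 lower without adult replicate 1. The endothelial markers Pecam1, at 3.72 and 3.52 CPM in aged cells and 6.33 and 3.88 CPM in adult cells (not called), and Cdh5, at 2.96 and 2.01 CPM in aged cells and 6.88 and 4.85 CPM in adult cells (call lost in DESeq2 and without aged replicate 2, log2 -0.998, or adult replicate 1, -0.963), were low. Flt1, a VEGF receptor, had 23.8 and 18 CPM in aged and 63.5 and 54.9 CPM in adult MGT libraries (log2 -1.50 ± 0.12), and its age change differed from that under LacZ by -1.82 ± 0.32 (adjusted p = 0.0035), a call lost without aged LacZ replicate 1 (-1.58). The summed endothelial level was 667 and 800 CPM in aged MGT libraries and 674 and 676 CPM in adult MGT libraries.

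Over all tested genes, 9.80% were called higher and 10.0% lower. The shares called higher and lower were 15% and 5% for epicardial genes and 33.3% and 0% for adipocyte genes. They were 25% and 25% for bone and cartilage genes and 10% and 10% for Schwann cell genes. Of 20 epicardial genes 3 were higher, with the retinoid enzyme Aldh1a1 at 329 and 321 CPM in aged cells and 159 and 147 CPM in adult cells, and 1 lower, the related Aldh1a2 at 170.1 and 149 CPM in aged cells and 301 and 325 CPM in adult cells. Of 9 adipocyte genes 3 were higher, including the regulator Pparg (log2 1.02 ± 0.18), and the higher ones numbered 2 without aged replicate 1 or adult replicate 2 and 1 without adult replicate 1. Of 20 bone and cartilage genes 5 were higher and 5 lower, with osteopontin, Spp1, at 277 and 226 CPM in aged cells and 726 and 825 CPM in adult cells (log2 -1.62 ± 0.12). The higher ones numbered 3 without aged replicate 1 or aged replicate 2 and 2 without adult replicate 1, and the lower ones 3 without adult replicate 2. Of 10 Schwann cell genes Mbp was higher and S100b lower, both near the floor and lost without at least 1 library. The lymphocyte genes Lck, with 0 counts in both aged libraries, and Pax5 were lower, and neither was called without aged replicate 2 or without adult replicate 2. No erythroid gene was tested.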

How the data were processed

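RNA-seq of primary mouse cardiac fibroblasts was deposited by the authors as 1 table of read counts per gene with FPKM values beside them, per the file headers. The submitters' processing notes name Trimmomatic 0.36, featureCounts (Subread 1.5.1), SAMtools and the mm10 build; for the aligner, annotation release and strand setting the notes and labels hold no entry. Per the labels' protocols the libraries were stranded and depleted of ribosomal RNA, while the molecule field reads polyA RNA.

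Library totals were recovered from the deposited FPKM and count values, since the table holds 86.5% to 87.5% of each total. Genes passing filterByExpr were tested with edgeR 4.0.16 (quasi-likelihood F-test, R 4.3.3) on the deposited counts of all 12 libraries with 6 group means and TMM factors of 0.9882 to 1.0106. Benjamini-Hochberg adjustment ran over 11940 genes with calls at an adjusted p below 0.05. CPM are counts scaled to the library total and the TMM factor. The limits on counts (3 counts, or 0.186 to 0.207 CPM in the MGT libraries of these ages) cover counting error only. The standard errors come from the fit and also hold the spread between the libraries of a group. The fit had at least 6 residual degrees of freedom, and its steps were tested on simulated data.

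Genes were named by rule: the 12 largest called changes in each direction with at least 5 CPM in the higher group, up to 4 called and 2 uncalled members of each list, the delivered factors, NR4A and cyclin inhibitor genes, and the 6 smallest p-values in each direction for the difference between vectors. Any other gene named, marked as such beside its values or not, was chosen after its values were seen. The comparison and the 45 gene lists were chosen with earlier results of these data known. Lists are described by counts and, for most, by shares and medians. The shares and the median of all tested genes stand with the first counts. Replicate numbers were not used to pair libraries. Alternatives were RLE factors, column sums as library sizes, no filter, DESeq2 1.42.0, limma 3.58.1 with voom, a fit of only the groups compared, a replicate block, and leaving out each library. Gene coordinates follow GENCODE M21 on mm10, and promoter sequences are from RefSeq (GRCm38.p6). A few genes that these rules select are not reported here.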

Additional observations from a re-analysis of the deposited data

Results flagged for a closer look

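The age contrast of 201 genes was higher under MGT than under LacZ, and that of 83 genes was lower, each by the test of the difference between the vectors. The genes with the smallest p-values in each direction are given as differences of the log2 changes, MGT minus LacZ, and each was called without any 1 of the 8 libraries. Higher under MGT were the lipoprotein lipase Lpl by 1.68, the actin-associated Pdlim3 by 3.49, Rasl11b by 1.81, haptoglobin, Hp, by 2.26, Rsad2 by 2.64 and the peptide transporter Tap1 by 1.37. Lpl had 203 and 172 CPM in aged and 141 and 137 CPM in adult MGT libraries, and 123 and 139 CPM in aged and 354 and 269 CPM in adult LacZ libraries. Pdlim3 had 36.2 and 34.3 CPM in aged and 24.4 and 25.1 CPM in adult MGT libraries, and 1.1 and 1.67 CPM in aged and 9.96 and 11.8 CPM in adult LacZ libraries. Both genes were called higher with age under MGT and lower under LacZ; the MGT call of Pdlim3 was lost without any 1 of the MGT libraries (log2 between 0.47 and 0.55), and that of Lpl without aged replicate 1 (0.30), adult replicate 1 (0.45) or adult replicate 2 (0.41).

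The differences lower under MGT were -1.23 for Peg3, -1.34 for Ctsc, -1.28 for Ptgs2, -0.95 for the serotonin receptor Htr2a, -0.89 for the glutamine transporter Slc38a1 and -0.96 for the adhesion gene Alcam. Slc38a1 had 43 and 43.5 CPM in aged and 78.9 and 82.4 CPM in adult MGT libraries, and 48.3 and 52.6 CPM in aged and 53.6 and 47.5 CPM in adult LacZ libraries. Alcam had 41.3 and 38.5 CPM in aged and 78 and 84.5 CPM in adult MGT libraries, and 22.1 and 21.6 CPM in aged and 23 and 22.7 CPM in adult LacZ libraries. Peg3, Ctsc, Slc38a1 and Alcam were called lower with age under MGT and not called under LacZ.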

How the results depend on the processing

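For the age contrast under MGT, RLE factors, column sums as library sizes, no filter, DESeq2, limma voom, the fit of only the groups compared and the replicate block kept the higher count between 1027 and 1517 and the lower count between 1111 and 1445. Requiring a 2-fold change left 146 higher and 321 lower, and leaving out 1 library gave 510 to 1029 higher and 566 to 909 lower. For the contrast under LacZ, the fit of only the groups compared called 807 higher and 1090 lower, a 2-fold change left 198 and 497, and leaving out 1 library gave 841 to 1968 higher and 1033 to 1863 lower. For the difference between the vectors, no filter gave 352 higher and 187 lower, a 2-fold change left 75 and 28, and leaving out 1 library gave 79 to 470 higher and 31 to 354 lower. A 2-fold minimum lowers the counts by its construction; for the other moves the cause was not tested. The replicate block, which gave 1153 higher and 1192 lower under MGT, changed no call among the 180 named genes, and deviations of same-numbered MGT libraries had a correlation of 0.016, so the numbers were not taken as pairs. Of the 168 named genes called, 119 were called without each of the 4 MGT libraries. The sign of uncalled genes turned when 1 MGT library was left out: the log2 change ranged over -0.131 to 0.082 for Gata4, -0.225 to 0.074 for Tbx5, -0.244 to 0.111 for Col1a1, -0.128 to 0.100 for Postn and -0.017 to 0.285 for Adgre1. Of the 88 counts of list members, 0 moved by over 1.5 times with RLE factors or column sums, 2 with the replicate block, 2 with limma voom, 4 with DESeq2, 5 without a filter, 15 in the fit of only the groups compared, 20 to 41 without 1 MGT library and 64 with a 2-fold minimum. With 2 libraries a group, small changes and genes near 3 counts were the least secure.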
